A study of Homo sapiens with 8 samples.

Results

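The 11p13 locus of CD44 and FJX1 is the stretch of human chromosome 11 from 35.05 to 35.80 Mb (genome build hg19) that holds CD44, FJX1 and the start of TRIM44. The stretch was selected on its peak calls, because a region between FJX1 and TRIM44 was present after knockdown and absent from the controls. Its members are all H3K27ac peaks overlapping that stretch in 4 deposited peak lists, 113 of 186774 peaks on chromosomes 1 to 22 and X. Merged wherever they overlapped by 1 bp or more, they gave 38 of the 60669 regions of the genome. All libraries came from the human cell line A549, derived from a lung adenocarcinoma and known for constant activity of NRF2, a regulator of the oxidative stress response. The CEBPB knockdown group had 2 libraries, 1 transfected with CEBPB siRNA-1 and 1 with CEBPB siRNA-2, and the control group had 2 libraries transfected with control siRNA. Medium was changed 24 h after transfection, and chromatin was collected after a further 24 h for immunoprecipitation with an antibody to H3K27ac. How far the siRNAs lowered CEBPB is not measured by such libraries. The study asked how enhancers in these cells depend on CEBPB. Nothing says that the control libraries were separate cultures, and their spread may be technical only, while the knockdown libraries also differ in their siRNA.

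H3K27ac is an acetylation of a lysine in the tail of histone H3 that marks active promoters and enhancers. CEBPB is a basic leucine zipper transcription factor that binds enhancers and promoters in many tissues. CD44 is a cell surface glycoprotein that binds hyaluronan, a sugar polymer of the extracellular matrix, and is widely used as a marker of adhesive and invasive carcinoma cells. FJX1 is the human relative of four-jointed, which in Drosophila encodes a Golgi kinase that acts in planar cell polarity. TRIM44 belongs to the tripartite motif family of proteins. In the RefSeq gene order of chromosome 11, SLC1A2, a glutamate transporter gene, and PAMR1 lie between CD44 and FJX1, PDHX, a pyruvate dehydrogenase complex gene, lies before CD44, and LDLRAD3 lies after TRIM44.

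A region called in all 4 libraries lay at the start of each of the 3 member genes, so the 250 bases before each RefSeq start are shown, with matches to the searched motifs in capitals. They are on the plus strand of GRCh38.p14, at chr11:35138921-35139170 for CD44, chr11:35618210-35618459 for FJX1 and chr11:35662525-35662774 for TRIM44. These positions belong to another build than the peaks and cannot be set against them.
CD44: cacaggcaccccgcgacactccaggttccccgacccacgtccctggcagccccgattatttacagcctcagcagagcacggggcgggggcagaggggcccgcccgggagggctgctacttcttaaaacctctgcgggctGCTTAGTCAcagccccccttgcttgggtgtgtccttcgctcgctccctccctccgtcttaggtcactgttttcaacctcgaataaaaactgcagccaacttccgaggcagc
FJX1: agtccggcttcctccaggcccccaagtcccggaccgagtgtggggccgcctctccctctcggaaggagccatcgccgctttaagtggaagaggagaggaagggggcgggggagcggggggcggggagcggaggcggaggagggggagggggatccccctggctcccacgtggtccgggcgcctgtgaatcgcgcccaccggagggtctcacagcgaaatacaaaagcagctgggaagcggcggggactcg
TRIM44: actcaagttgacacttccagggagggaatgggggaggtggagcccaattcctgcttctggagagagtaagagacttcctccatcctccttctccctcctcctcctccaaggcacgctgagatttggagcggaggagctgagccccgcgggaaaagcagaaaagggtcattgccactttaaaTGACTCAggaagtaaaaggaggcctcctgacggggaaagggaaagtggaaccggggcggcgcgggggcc
The motifs searched on both strands were TTGCGCAA and TTGCNNAA for C/EBP factors, TGANTCA for AP-1 and TGACNNNGC for NRF2. The capitals in CD44 are the reverse complement of TGACNNNGC, beginning 111 bases before the start, and those in TRIM44 are TGACTCA, a match to TGANTCA beginning 69 bases before the start. The FJX1 window held none of the 4 patterns. Over 35116 RefSeq promoter windows of the same length, TGACNNNGC was found in 10.9%, TGANTCA in 6.57%, TTGCNNAA in 9.05% and TTGCGCAA in 0.131%. The window of FJX1 was 70.4% G or C with 22 CpG dinucleotides, that of CD44 was 62.4% with 15, and that of TRIM44 was 58.0% with 9, against medians of 58.0% and 11 over all windows.

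Each library had its own peak list, without read counts, so depth is unknown and a region without a peak is one that was not called. The fold enrichment at a peak's summit and its −log10 q are the authors' values. They depend on the library, so they were used to describe peaks and to order or divide them within a list, and no change is read from them between lists. Over chromosomes 1 to 22 and X, the knockdown lists held 47370 and 48216 peaks over 70.4 and 61.7 Mb, and the control lists 45537 and 45651 peaks over 67.9 and 62.1 Mb. In the locus, the siRNA-1 list held 31 members and the siRNA-2 list 30, against 29 in control 1 and 23 in control 2. The locus had been chosen for a gained region, so the values below describe these 4 libraries and carry no test. An exact permutation of 2 libraries against 2 cannot give a p below 0.333. In cells taken in bulk, acetylation in more cells and more acetylation per cell cannot be told apart.

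Over the locus, 5 of 38 regions were gained, with a peak in each knockdown library and in no control, against 6.76% of all merged regions of the genome. Another 3 were lost, with a peak in each control and in no knockdown library, against 7.01% of all regions, and 14 were called in all 4 libraries, against 39.8%. The other 16 fell in none of these classes. Of these, 3 were called in 3 libraries and 13 in 1 list only, and those 13 were 236 to 732 bp wide with folds of 2.89 to 4.94. They were 3 with siRNA-1, 3 with siRNA-2, 5 in control 1 and 2 in control 2. With a −log10 q of 10 or more required where called, 2 gained regions were left, those beside FJX1 and 60.2 kb before CD44, and 0 lost regions. Leaving out either siRNA library gave a gained count of 9 each time, and the lost count was 5 without siRNA-2, 5 without control 1 and 8 without control 2, since fewer calls or absences are then required.

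The longest of the 5 gained regions, with the highest folds, lay between FJX1 and TRIM44, at chr11:35649599-35655256, where both knockdown libraries had a peak and neither control did. The siRNA-1 library held 1 peak of 5658 bp with a fold enrichment of 42.9 at its summit. The siRNA-2 library had 2 peaks covering 3193 bp, the stronger with a fold of 19. The summits of the 2 libraries, at positions 35652082 and 35652098, were 16 bp apart, and all 3193 bp called with siRNA-2 were also called with siRNA-1. Both summits lay 10.1 kb after the end of FJX1 and 31.9 kb before the start of TRIM44. The −log10 q was 209 with siRNA-1, at percentile 95.3 of that list, and 77.9 with siRNA-2, at percentile 88.5. It was thus a strong peak in both lists, but by fold it had rank 2 in the locus in the siRNA-1 list and rank 5 in the siRNA-2 list. The controls had no peak over 42.1 kb around it in control 1 and 42.5 kb in control 2, the gap from the region at FJX1 to that at TRIM44. The siRNA-1 list also held a pair of faint peaks in this gap, at chr11:35643768-35644053 and chr11:35648420-35648719, with folds of 3.58 and 3.82, which the other lists lacked.

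**Figure D1:**
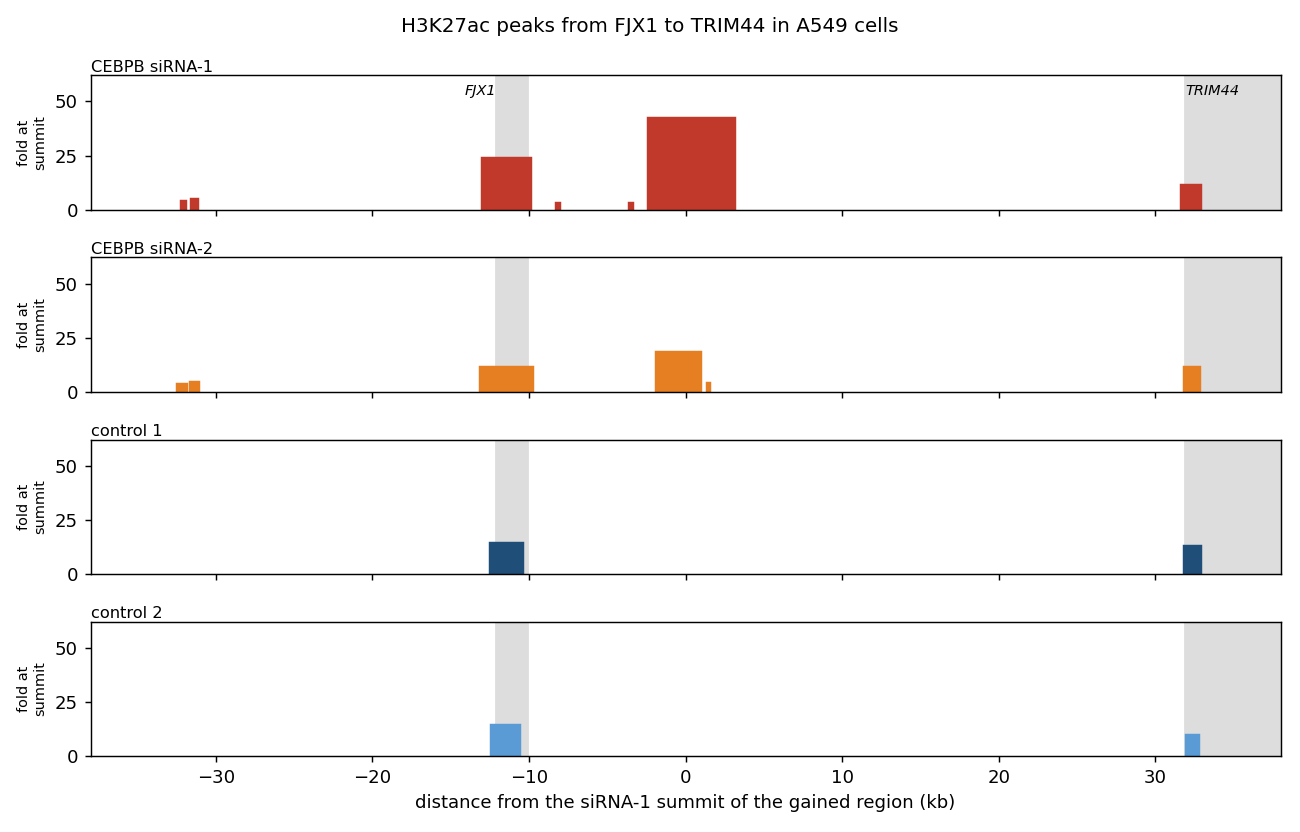
Peaks from before FJX1 to the start of TRIM44, by distance in kb from the siRNA-1 summit of the gained region (x axis) and with bar height the fold enrichment at the summit (y axis) in the 2 CEBPB siRNA and 2 control libraries; grey marks genes. The bars at 0, with folds of 42.9 and 19, are in the CEBPB siRNA libraries and neither control has a bar there, while all 4 have bars at FJX1 and TRIM44. Heights are comparable within a library only.

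The region at FJX1 itself, chr11:35638895-35642350, was called in all 4 libraries and was longer in both knockdown lists. Called length there was 3189 bp with siRNA-1 and 3456 bp with siRNA-2, against 2208 bp in control 1 and 1915 bp in control 2. The mean was 3322.5 ± 189 bp in knockdown libraries and 2061.5 ± 207 bp in controls (SD, n = 2 each), a ratio of 1.61, and the groups did not overlap. In the genome, 26.9% of the regions called in all 4 libraries were likewise longer in both knockdown lists. The strongest summits of the FJX1 region lay within 250 bp of each other in the 4 lists. The fold at its summit was 24.5 with siRNA-1 and 12.1 with siRNA-2, beside 14.9 in control 1 and 14.7 in control 2, and its rank among the 14 regions called everywhere was 3 and 7 with the siRNAs, against 4 and 5 in the controls. Its order among the other regions thus overlapped between the treatments, while its length did not.

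The region at the start of TRIM44, chr11:35683661-35685004, had similar lengths in the 4 libraries. It covered 1344 bp with siRNA-1 and 1120 bp with siRNA-2, against 1126 bp in control 1 and 913 bp in control 2, so the groups overlapped. Its summits lay within 134 bp in the 4 lists, with folds of 11.9 and 12 in the knockdown lists and 13.6 and 10.3 in the control lists. Before FJX1, a pair of short regions was called in both knockdown libraries only, at chr11:35619516-35620213 and chr11:35620377-35620994. Their folds were 4.62 and 5.73 with siRNA-1 and 4.36 and 4.94 with siRNA-2. The medians over all 4103 gained regions of the genome were 5.49 in the siRNA-1 list and 5.2 in the siRNA-2 list. Beyond the start of TRIM44, the controls alone had a faint region at chr11:35756417-35756947, with folds of 3.63 and 4.6.

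From FJX1 to the end of the window, 9.8 kb was called in the siRNA-1 library and 6.66 kb in the siRNA-2 library, against 3.32 kb in control 1 and 2.7 kb in control 2. Knockdown libraries averaged 8.23 ± 2.22 kb and controls 3.01 ± 0.439 kb (SD, n = 2 each). Of the difference of 5.22 kb, 4.43 kb lay in the gained region between FJX1 and TRIM44, for which the locus had been selected. Without that region the siRNA-1 library had 4.15 kb called in the interval and the siRNA-2 library 3.47 kb, against 3.32 kb and 2.7 kb in the controls.

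CD44 had 3 regions called in all 4 libraries, and the strongest of them was a different one in each treatment. In both knockdown lists it was a region inside the gene, chr11:35183549-35190483, with its siRNA-1 summit 28.0 kb after the start of CD44. In both control lists it was the region at the gene's start, chr11:35159691-35168209. The inner region had a fold of 48.1 with siRNA-1 and 32.2 with siRNA-2, beside 10.7 in control 1 and 11.5 in control 2. It thus had rank 1 of the 14 regions called everywhere in both knockdown lists, against ranks 9 and 7 in control 1 and control 2. The region at the start had a fold of 14.9 with siRNA-1 and 29.7 with siRNA-2, beside 24.9 in control 1 and 25.9 in control 2, where it had rank 1. Divided within each list, the fold of the inner region over that of the start was 3.22 with siRNA-1 and 1.08 with siRNA-2, beside 0.431 in control 1 and 0.444 in control 2. The 2 control ratios lay close together, and the siRNA-2 ratio was only just above 1. The highest −log10 q of each region gave the same order, with 254 and 177 for the inner region and 58.1 and 102 for the start in the siRNA-1 and siRNA-2 lists, against 48.2 and 43.9 for the inner region and 107 and 96.1 for the start in control 1 and control 2.

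**Figure D2:**
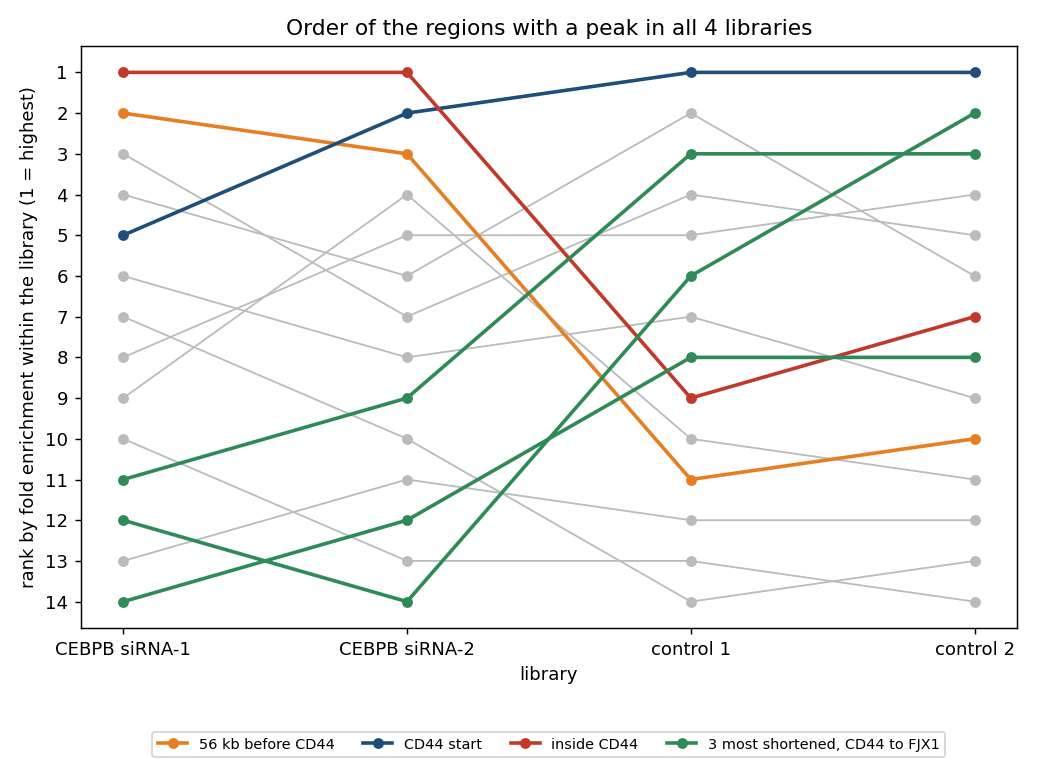
Rank by fold enrichment within each library (y axis, 1 at the top) of the 14 regions with a peak in all 4 libraries (x axis: CEBPB siRNA-1, CEBPB siRNA-2, control 1, control 2); each line is a region. The region inside CD44 (red) has rank 1 in both CEBPB siRNA libraries, against ranks 9 and 7 in the controls, where the region at the CD44 start (dark blue) has rank 1.

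Called lengths at CD44 lay closer together than these ratios. The region at the start covered 7904 bp with siRNA-1 and 7782 bp with siRNA-2, against 8198 bp in control 1 and 7951 bp in control 2, a ratio of means of 0.971. Its strongest summit lay at 35160973 with siRNA-2, 35161017 in control 1 and 35160919 in control 2. With siRNA-1 the strongest summit was at 35165656, in a later peak of the same region, and the wide peak before it had a fold of 11.9. The inner region covered 6935 bp and 6421 bp in the knockdown libraries, against 6148 bp and 5335 bp in the controls, and averaged 6678 ± 363 bp and 5741.5 ± 575 bp (SD, n = 2 each). The inner region thus had both knockdown values above both control values, which held for 26.9% of the regions called in all 4 libraries in the genome. Its summits lay at 35188025 with siRNA-1, 35187879 with siRNA-2 and 35187755 in control 1, while control 2 had its strongest summit at 35185124, in the first of 2 peaks with folds of 11.5 and 10.6, of which the other had the higher −log10 q, 43.9 against 28.3.

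The remaining region of CD44 called everywhere, chr11:35195050-35196956, was shorter after knockdown. It covered 746 bp with siRNA-1 and 950 bp with siRNA-2, against 1479 bp in control 1 and 1793 bp in control 2. Just before it, at chr11:35194162-35194819, the controls alone had a region, with folds of 5.25 and 3.62, at a distance of 0.23 kb. Towards the end of CD44 a further region was called in the controls only, chr11:35233958-35234382, with folds of 4.87 and 3.94. A region at chr11:35236619-35237113 was called with both siRNAs only, with folds of 3.46 and 4.63, and a neighbour at chr11:35235510-35236371 was called with both siRNAs and faintly, at a fold of 2.53, in control 1. Regions of CD44 called in 1 list only were chr11:35183164-35183399 with siRNA-1, chr11:35201279-35201533 in control 1 and chr11:35200589-35200842 in control 2, with folds of 3.3, 2.89 and 3.7. Among these low peaks of the gene, the region of the controls at 35233958 thus lay close to those at 35235510 and 35236619. None of the gained or lost regions of CD44 reached a −log10 q of 10, so no pattern by treatment is read from them. Over the whole of CD44 (35.160 to 35.254 Mb) 16.5 kb was called in the siRNA-1 library and 16.4 kb in the siRNA-2 library, against 17.2 kb in control 1 and 16.2 kb in control 2. The means of 16.5 ± 0.114 kb and 16.7 ± 0.682 kb (SD, n = 2 each) differed by less than the spread between the controls, and the difference of -0.23 kb turned to 0.25 kb without control 1.

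**Figure D3:**
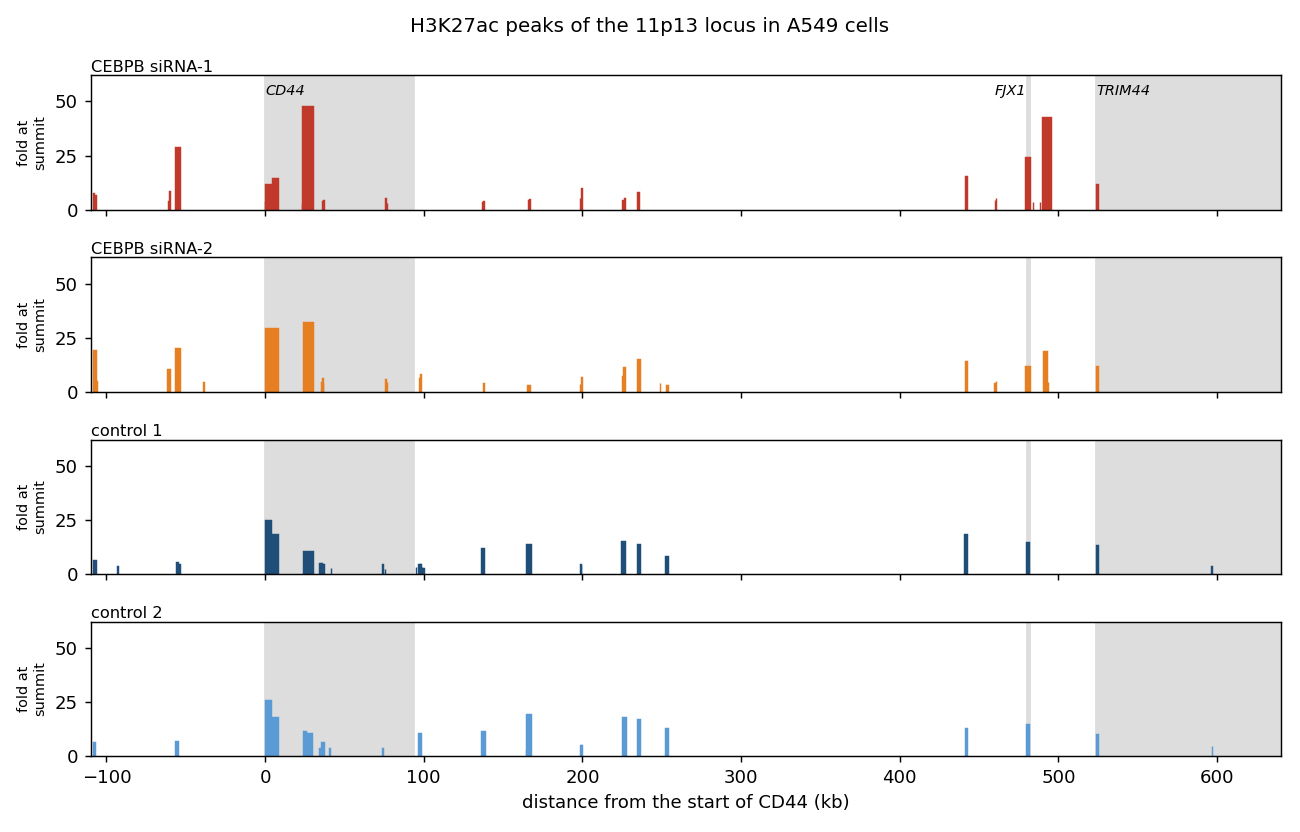
Peaks of the whole window by distance in kb from the start of CD44 (x axis), with bar height the fold enrichment at the summit (y axis), in the 2 CEBPB siRNA and 2 control libraries; grey marks CD44, FJX1 and TRIM44. The tallest bar lies inside CD44 in both CEBPB siRNA libraries, against the start of CD44 in both controls. Heights are comparable within a library only.

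Within the window upstream of CD44, called length was greater in both knockdown libraries, while a region just before the window, described below, was shorter in both. The main region there, chr11:35103133-35106553, has its siRNA-1 summit 55.5 kb before CD44. It covered 3337 bp with siRNA-1 and 3421 bp with siRNA-2, against 1913 bp in control 1 and 2011 bp in control 2, or 3379 ± 59.4 bp and 1962 ± 69.3 bp (SD, n = 2 each). Both knockdown lengths of this region were above both control lengths, as in 26.9% of the regions called everywhere in the genome. Among the 14 regions called everywhere it had ranks 2 and 3 in the siRNA-1 and siRNA-2 lists, with folds of 28.8 and 20.4, against ranks 11 and 10 in control 1 and control 2, with folds of 5.83 and 7.13. A region next to it, chr11:35098422-35100337, was called with both siRNAs only, with folds of 8.82 and 10.7, and lay 2.79 kb away. After the region beside FJX1 it had the highest folds of the gained regions of the locus. The most distant region called everywhere, chr11:35051282-35053372, gave overlapping lengths of 1606 and 2091 bp with siRNA-1 and siRNA-2, against 1660 and 1514 bp in control 1 and control 2. From the start of the window to CD44, knockdown libraries had 6.32 and 8.25 kb of called length and controls 4.5 and 3.62 kb.

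Between the end of CD44 and FJX1, where SLC1A2 and PAMR1 lie in gene order, the direction was the opposite. In all 8.77 kb was called in the siRNA-1 library and 12.5 kb in the siRNA-2 library, against 16.2 kb in control 1 and 16.8 kb in control 2. Knockdown libraries averaged 10.6 ± 2.62 kb and controls 16.5 ± 0.465 kb (SD, n = 2 each), a difference of -5.87 kb. Within the numbers of the labels it was -7.40 kb for number 1 and -4.35 kb for number 2. Of the 16 regions there, 0 were lost altogether in the lists as deposited (a peak in each control and none with either siRNA). That count turned on the threshold. With a −log10 q of 10 or more required in every list, 3 were lost, at 35296039, 35324649 and 35412207. Their knockdown peaks had a −log10 q of at most 6.31. As deposited, 6 of the 7 called in all 4 libraries were shorter in both knockdown lists, as were 25.6% of such regions in the genome. Differences of any size count here, and some were small.

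**Figure D4:**
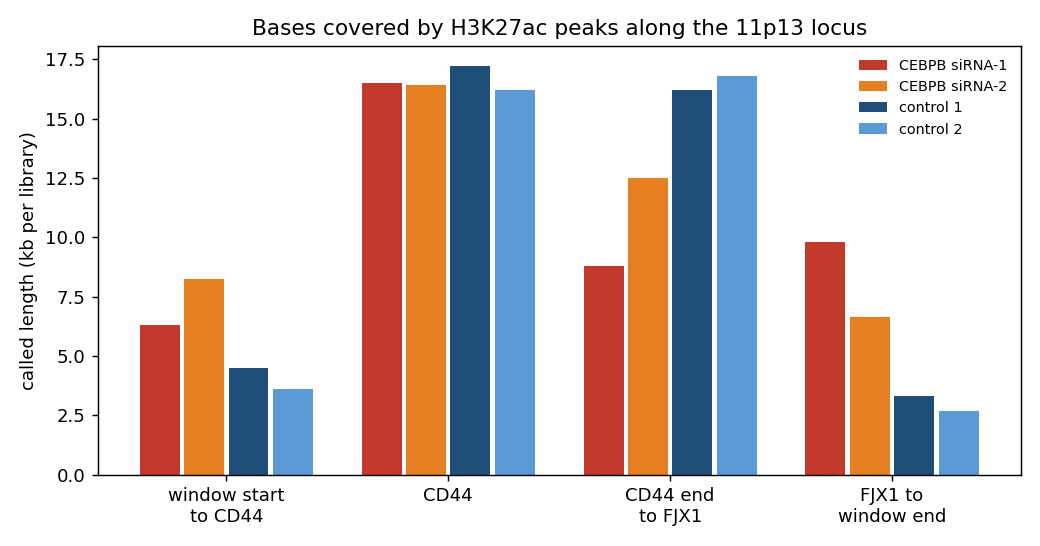
Called length in kb (y axis) in 4 intervals of the locus (x axis) for the 2 CEBPB siRNA libraries and the 2 control libraries, 1 bar per library. From the end of CD44 to FJX1 the CEBPB siRNA libraries have 8.77 and 12.5 kb, against 16.2 and 16.8 kb in the controls, and in both flanking intervals outside CD44 they have more than the controls.

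The most shortened were chr11:35296039-35298434 and chr11:35324649-35327556. The one at 35296039 covered 829 bp with siRNA-1 and 406 bp with siRNA-2, against 1963 bp in control 1 and 2166 bp in control 2, a ratio of means of 0.299. The one at 35324649 covered 636 and 1356 bp in the siRNA-1 and siRNA-2 libraries, against 2877 and 2864 bp in control 1 and control 2, a ratio of 0.347. With siRNA-1 each consisted of 2 small peaks. By fold the region at 35296039 had ranks 14 and 12 of 14 in the knockdown lists, against rank 8 in each control, and that at 35324649 had ranks 12 and 14, against ranks 6 and 2. Next came chr11:35384617-35387411, which covered 1470 and 1945 bp in the knockdown libraries, against 2390 and 2735 bp in the controls, each knockdown library having it as 2 peaks and each control as 1. It had ranks 11 and 9 in the knockdown lists and rank 3 in each control list.

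The siRNA-1 and siRNA-2 libraries differed from each other in part of this interval. A region at chr11:35412207-35414167 had no peak with siRNA-1 and 1113 bp with siRNA-2, against 1771 bp in control 1 and 1944 bp in control 2. A region just after CD44, chr11:35256606-35258569, likewise had no peak with siRNA-1, and 1337 bp with siRNA-2, against 1483 bp and 1932 bp in the controls. At chr11:35359050-35360061 the lengths were 1005 bp with siRNA-1 and 416 bp with siRNA-2, against 330 bp and 643 bp in the controls, which overlapped. Nearer to FJX1, chr11:35600828-35602636 covered 1267 and 1320 bp in the knockdown libraries and 1809 and 1669 bp in the controls, a ratio of 0.744. The remaining regions called everywhere here, chr11:35358263-35358875 and chr11:35394425-35396193, had ratios of 0.829 and 0.844.

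**Figure D5:**
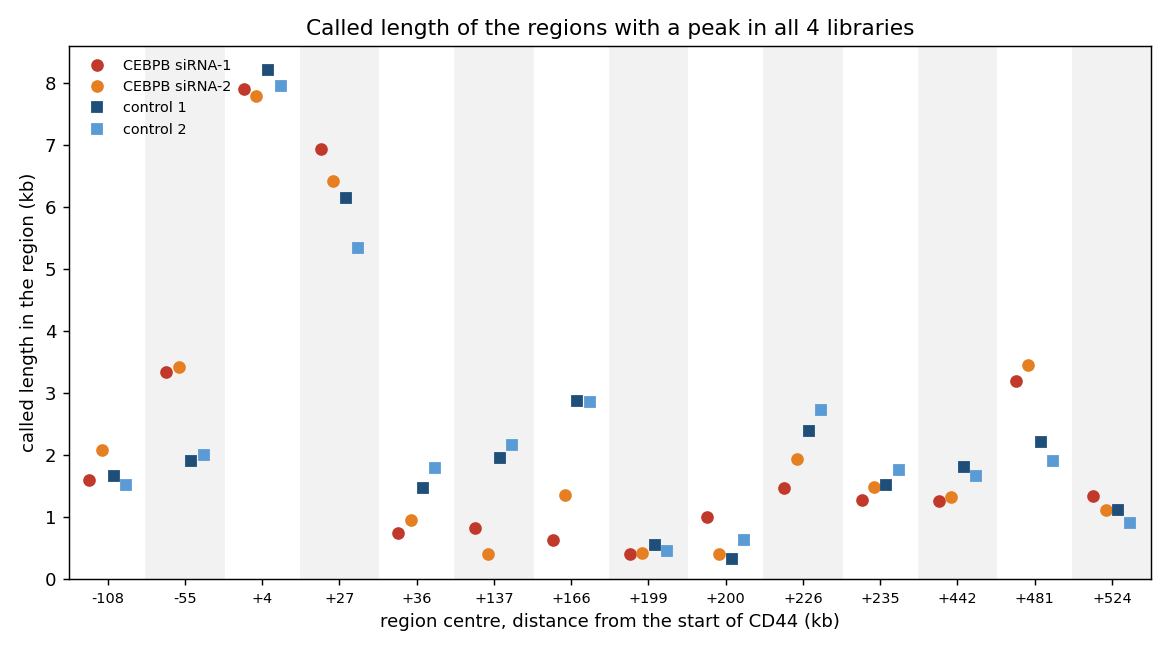
Called length in kb (y axis) of each of the 14 regions with a peak in all 4 libraries, ordered along the chromosome and labelled by the distance of their centre from the start of CD44 in kb (x axis); circles are the CEBPB siRNA libraries and squares the controls. The CEBPB siRNA values lie below the control values in 8 regions, above them in 3 and among them in 3.

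Of the 14 regions called everywhere, 8 were shorter in both knockdown libraries than in both controls (57.1%), against 25.6% of the 24133 such regions in the genome, and 3 were longer (21.4%), against 26.9%. These counts take in differences of any size. Among the 8, the groups nearly met at the start of CD44, with 7904 bp in siRNA-1 and 7951 bp in control 2. The same held at 35358263 (419 bp in siRNA-2, 453 bp in control 2) and at 35394425 (1492 bp in siRNA-2, 1516 bp in control 1). The median ratio of knockdown over control length was 0.908 in the locus and 1.01 in the genome. By interval the median ratio was 1.44 for the 2 regions upstream of CD44, 0.971 for the 3 in CD44 and 0.744 for the 7 between CD44 and FJX1, and the single regions at FJX1 and TRIM44 had ratios of 1.61 and 1.21. Of 10 neighbouring pairs of such regions within 50 kb, 3 stood in one order by fold in both knockdown lists and in the other order in both control lists, against 8.56% of 14564 pairs in the genome. These 3 pairs were the start and inside of CD44, chr11:35324649-35327556 with its neighbour at 35358263, and chr11:35384617-35387411 with its neighbour at 35394425. Each order was near a tie in at least 1 list. The fold of the second region over the first was 1.08 with siRNA-2 at CD44. It was 1.13 and 1.24 with siRNA-1 and siRNA-2 for the pair at 35324649, and 0.917 and 0.954 in the controls for that at 35384617.

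Summed over the locus, called length in the 2 groups lay closer together than in these intervals. In all 41.4 kb was called in the siRNA-1 library and 43.8 kb in the siRNA-2 library, against 41.2 kb in control 1 and 39.4 kb in control 2. The means of 42.6 ± 1.65 kb and 40.3 ± 1.28 kb (SD, n = 2 each) differed by 2.35 kb. The difference was 1.18 kb without siRNA-2 and 1.44 kb without control 2, 0.44 kb among peaks with a −log10 q of 10 or more and 0.68 kb at equal called length. Leaving out the gained region beside FJX1, the libraries had 35.8 and 40.6 kb after knockdown and 41.2 and 39.4 kb in controls, which overlapped.

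Just inside the start of the window lay chr11:35051282-35053372, described above. Just outside, 14.6 kb before the window, lay a region called in all 4 libraries at chr11:35024677-35035404, whose fold was higher than that of any region of the window in the siRNA-2 list and in both control lists, but not in the siRNA-1 list. It had folds of 20.2 with siRNA-1 and 49.5 with siRNA-2, beside 68.8 in control 1 and 70 in control 2, and called lengths of 6917 and 9093 bp in the knockdown libraries, against 10632 and 10313 bp in the controls. It consisted of 3 peaks in the siRNA-1 list and 5 in the siRNA-2 list, against 1 in control 1 and 2 in control 2. Its called length was lower in both knockdown libraries, the opposite of the stretch from the window's start to CD44. The called lengths given upstream of CD44 and over the locus leave this region out, so they depend on where the window starts. At the other edge, the last region inside was the faint one of the controls at chr11:35756417-35756947, and the first outside was a peak of siRNA-2 alone at chr11:35817652-35818201 with a fold of 5.76.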

How the data were processed

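The members, intervals and comparisons were chosen with earlier results of these data known. The submitters' processing notes name BWA 0.7.17, SAMtools 1.7.0, MACS2 2.2.7.1 and the build hg19. The sources used here give neither options nor any use of the 4 input libraries. Per the labels' protocols, reads were single-end and 101 bases long. Each deposited list gives, per peak, a fold enrichment (a linear ratio) at the summit, a −log10 p and −log10 q, and a score of 10 times the −log10 q; the highest q-value deposited was 0.0498. Peaks were not called on pooled libraries.

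The 4 lists were merged over chromosomes 1 to 22 and X with Python 3.11.15 and numpy 2.4.6, and merging was tested on simulated data. Called length is the number of bases under a library's peaks, clipped to the interval. A region's fold and its −log10 q are the highest among its peaks in a list, each taken separately, and its summit is that of the peak with the highest fold. Gene positions in hg19, to the nearest kb, came with the choice of the locus, and exons and introns were not placed. All gained and lost regions, all regions of CD44 and those within 50 kb of FJX1 are named. Promoter sequences are from RefSeq (GRCh38.p14), which also gave the gene order. Alternatives were a −log10 q of 10 or more, other merging rules, equal called length and leaving out each library.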

Additional observations from a re-analysis of the deposited data

How the results depend on the processing

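Keeping peaks of −log10 q 10 or more in every list, the locus had 3 gained, 3 lost and 8 kept regions, and with that threshold only where called 2 gained, 0 lost and 8 kept. The 3 lost with the threshold in every list were not the 3 lost as deposited. They were those at 35296039, 35324649 and 35412207, which had weaker knockdown peaks or none. The added gained region was the one at 35359050, called in all 4 lists as deposited, with control −log10 q of 6.59 and 9.12. Stitching within 10 kb gave 1 gained and 1 lost region, where fewer and larger units are counted. The gained region between FJX1 and TRIM44 lay 7.25 kb from the one at FJX1, was joined to it, and no longer counted as gained. The 1 gained region left was the short pair before FJX1, at 35619516 and 35620377, which lay 16.9 and 17.7 kb from the nearest kept region. Equal called length of 61.68 Mb per library gave 3 gained and 9 kept regions. Without each library in turn, gained regions ranged from 5 to 9, lost from 3 to 8 and kept from 14 to 16. Called length over the locus, knockdown minus control, was 0.44 kb with a −log10 q of 10 or more and 0.68 kb at equal called length, and 1.18 to 3.52 kb without each library. Between CD44 and FJX1 it was -7.87 kb with a −log10 q of 10 or more and -7.73 to -4.02 kb without each library, and from FJX1 on 3.65 to 6.79 kb, keeping its sign in all settings run. In the gained region beside FJX1 it was 3.19 to 5.66 kb. Over CD44 it turned to 0.01 kb with a −log10 q of 10 or more, and ranged from -0.71 to 0.25 kb without each library. The cause was not tested.

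With the replicate block, the mean difference over the locus was 2.35 kb, as without it, because means of balanced pairs are equal; within number 1 it was 0.27 kb and within number 2 4.42 kb. Whether the numbers pair the libraries was not tested, and the result comes from no test. Depth is unknown and limits what an absent peak shows.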
